A study of Saccharomyces cerevisiae with 36 samples.

Results

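Bcl-B is 1 of the 338 proteins that 4 library sets of a pooled yeast 2-hybrid assay hold between them, and its members here are all pairs in which it is the row or the column protein. In the 15 proteins that the 4 sets share it forms 29 ordered pairs, with itself, with 5 other Bcl-2 homologues and with 9 inhibitors, and in both larger sets it also met 322 designed heterodimer chains. Bcl-B, the product of the human gene BCL2L10, belongs to the anti-apoptotic branch of the Bcl-2 family. Proteins of this branch hold a surface groove that takes up the BH3 helix of pro-apoptotic relatives, and designed inhibitors carry a helix meant for the same groove. The homologues differ in which helices they accept, so an inhibitor can be selective for 1 of them or bind several.

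Each yeast cell carried a plasmid with a pair of fusion proteins and their barcodes, and growth without histidine selected for pairs that interacted. The groups were yeast after selection (labelled His-) and yeast before it (labelled His+), with 1 library of each state in every library set. All libraries shared the MATa strain, with his3-delta, trp1 and ura3-52, the reporter leu2::pGAL6z-HIS3 and, beside leu2-delta200, the markers AGA1::GAL1-AGA1::URA3, pep4::BleoMX, prbd1.6R, can1 and GAL. All cells were first grown out without tryptophan, which keeps the plasmid. The selection medium lacked histidine too and held 3-AT, an inhibitor of the HIS3 enzyme, at 1 mM in the descriptions of these libraries and at 3 mM in the growth protocol.

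Sets L45 and L66 (the Bcl pool) held the homologues and inhibitors, and sets L44 and L49 (the DHD pool) held them among the designed chains. L44 and L49 are labelled as biological replicates 1 and 2. The labels of L45 and L66 give no replicate number, so p-values over sets measure the spread between these sets, whatever its source. Libraries after and before selection held 2304920 and 2564663 reads in L45, 521085 and 508736 in L66, 34925075 and 33394129 in L44, and 3959528 and 4057624 in L49. The median pair held 1902 and 7968 reads after and before selection in L45, and 3 and 23 reads in L49. The sources used here do not say which axis of the count matrices held the DNA-binding fusion, so pairs are told apart as row and column only.

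Bcl-B and its partners were told apart by their barcodes, which are shown for Bcl-B and for the 4 inhibitors on which the results turn, because both pools used different ones. The Bcl pool (L45 and L66) carried barcodes of 20 bases:
Bcl-B: ccgtcgcagtccactcccat
alphaBCLB: gcgatgttgtaatggacatc
BCDP01: catgccgcgataacctgcta
BECM01: gttcgacatggatgtaacct
XCDP07: gttgaggagagcgatttcca
The DHD pool (L44 and L49) carried barcodes of 10 bases for the same proteins:
Bcl-B: gccttacgaa
alphaBCLB: ctccttaagc
BCDP01: aatgcgtata
BECM01: agcaggtgta
XCDP07: ctcgataggt
Each of these stood for 1 protein only in the barcode map of its library set, and none has a stretch in capitals because no part of them is compared.

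The share of reads held by pairs with Bcl-B varied between the sets. They held 58.3% of reads after and 27.1% before selection in L45, where they were 12.9% of pairs. In L66 they held 7.16% after and 11.3% before selection, both below their 12.1% of pairs. In L44 the shares were 4.89% after and 2.70% before, and in L49 9.95% after and 4.09% before, where Bcl-B pairs were 0.593% of pairs. The share was thus higher after selection in 3 of 4 sets and lower in L66. Counting error was small beside these differences (the widest Wilson 95% interval, of L66 before selection, ran from 11.2 to 11.4%). The pair with the most reads after selection was one of Bcl-B in L45, where BCDP01 with Bcl-B as the column took up 12.4% of the library, and in L44, where Bcl-B with alphaBCLB as the column led all 113569 pairs.

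Bcl-B was enriched with 4 of the 9 inhibitors, in both orientations. These were alphaBCLB, whose name points to Bcl-B, and BCDP01, BECM01 and XCDP07, whose names the labels do not explain. Values are log2 of the read share after over before selection, with 1 read added to each count. In the comparisons over sets the median of the shared pairs was subtracted in each set, because the median pair lost share (medians -1.60 in L45, -2.07 in L66, -2.33 in L44 and -2.02 in L49).

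Paired with alphaBCLB as the column, Bcl-B held 95229 reads after and 24285 before selection in L45, and 7088 after and 739 before in L66. In L44 it held 254518 reads after and 4043 before, and in L49 20671 after and 620 before. The read share was higher after selection in all 4 sets, by 4.36-fold in L45, 9.35-fold in L66, 60.2-fold in L44 and 34.1-fold in L49. With Bcl-B as the column, alphaBCLB held 164246 reads after and 30109 before in L45, 1507 after and 610 before in L66, 104772 after and 1175 before in L44, and 4628 after and 510 before in L49. This orientation was also higher after selection in every set, with the smallest gain (2.41-fold) in L66 and the largest (85.2-fold) in L44. Relative to the median pair, the mean over sets was 6.09 ± 0.82 as a row and 5.38 ± 0.93 as a column (SE, n = 4 sets, limma adjusted p = 0.0094 and 0.010).

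Bcl-B with BCDP01 gained share in every set too. As a row it held 148095 reads after and 29484 before selection in L45, 6737 after and 1103 before in L66, 206741 after and 3005 before in L44, and 60178 after and 542 before in L49. All 4 sets were higher after selection, from 5.59-fold in L45 to 114-fold in L49. As a column Bcl-B held 285929 reads after and 31856 before in L45, 1509 after and 1314 before in L66, 165412 after and 1616 before in L44, and 4482 after and 478 before in L49. The gain in L66 was small there, at 1.12-fold, against 97.8-fold in L44. The means were 6.49 ± 0.96 as a row and 5.34 ± 1.04 as a column (SE, n = 4 sets, limma adjusted p = 0.0094 and 0.015).

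With BECM01, Bcl-B as the row reached the highest mean of its 29 pairs, 6.55 ± 1.05 (SE, n = 4, limma adjusted p = 0.0094). It held 77386 reads after and 20283 before selection in L45, 5815 after and 972 before in L66, 193476 after and 2269 before in L44, and 66527 after and 465 before in L49. As a column Bcl-B held 183089 reads after and 28449 before in L45, 698 after and 1443 before in L66, 67769 after and 1329 before in L44, and 8622 after and 532 before in L49. In L66 this pair thus lost share (0.473-fold), and it stood above the median pair there by only 0.99. The column mean was 4.86 ± 1.09 (limma adjusted p = 0.025), the largest adjusted p among the 8 pairs.

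With XCDP07 the higher orientation changed between sets. As a row Bcl-B held 6947 reads after and 8069 before selection in L45, 3566 after and 599 before in L66, 17933 after and 1163 before in L44, and 3780 after and 160 before in L49. As a column it held 212432 after and 24752 before in L45, 922 after and 532 before in L66, 113978 after and 1612 before in L44, and 2705 after and 163 before in L49. In L45 the row pair kept its share (0.958-fold) while the column pair gained 9.55-fold, and in L66 the row pair gained more. The means were 4.74 ± 0.91 as a row and 5.55 ± 0.92 as a column (SE, n = 4 sets, limma adjusted p = 0.015 and 0.0094).

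**Figure D1:**
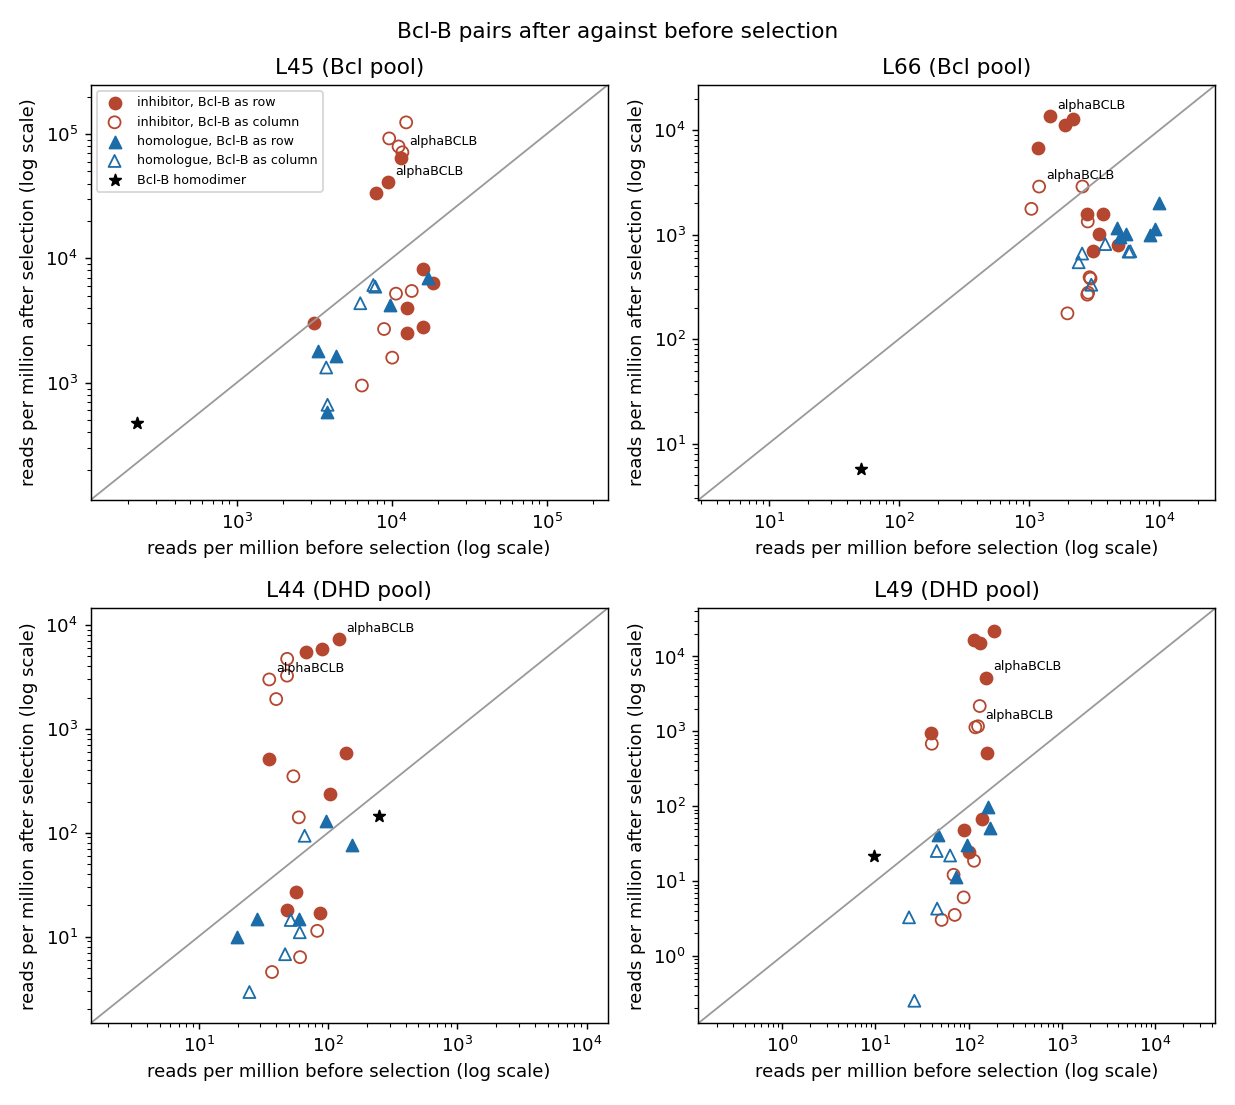
Library-scaled reads after selection (vertical, log scale) against before selection (horizontal, log scale) of each Bcl-B pair, in 1 panel per library set; the line marks equal shares. Inhibitor pairs above the line include alphaBCLB (named) in every set, while most pairs with other homologues lie below it.

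Over the 4 sets, 8 of the 29 Bcl-B pairs passed the limma test as higher than the median pair and 0 as lower, and the 8 are these 4 inhibitors in both orientations. At an unadjusted p under 0.05, 9 Bcl-B pairs were higher and 1 was lower, against 46 higher and 14 lower of all 215. The background was 14% of the 215 shared pairs tested called higher (30 pairs), with 0 called lower. With library totals alone, without subtracting the median, the split for Bcl-B was 8 higher and 12 lower of 29, against 11.2% higher and 53.5% lower over all 215 pairs. The median of the Bcl-B pairs was 0.61, against 0.11 over all pairs tested. All 8 pairs were above 0 in 4 of 4 sets, and each was higher in both L44 and L49 than in both L45 and L66. With BCDP01 and Bcl-B as the row, for example, values were 4.08 in L45, 4.65 in L66, 8.36 in L44 and 8.85 in L49. The sets thus split by pool for these pairs, while SE and p treat them as 4 separate values. The SDs of the 4 values ran from 1.99 to 2.95 in the 8 pairs, and the limma SEs are smaller than these values alone give. The difference between pools was not tested.

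How many of these calls held depended on which set was left out, and all 8 passed without L44. Without L49, 0 of 29 Bcl-B pairs passed in limma and 8 had an unadjusted p under 0.05, and the means of the 8 inhibitor pairs were 4.12 to 5.75 (adjusted p from 0.061 to 0.14). Without L45, BCDP01 (adjusted p = 0.081) and BECM01 (0.12) with Bcl-B as the column no longer passed, and without L66 XCDP07 with Bcl-B as the row (0.068) did not.

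The other 5 inhibitors gave Bcl-B no call. The highest was alphaMCL1, named for the homologue Mcl1, with Bcl-B as the row. It held 18777 reads after and 40916 before selection in L45, 832 after and 1427 before in L66, 20375 after and 4637 before in L44, and 2040 after and 632 before in L49. It gained share in L44 and L49 and lost it in L45 and L66, and its mean of 2.51 ± 0.79 (SE, n = 4) did not pass (limma adjusted p = 0.083). With Bcl-B as the column alphaMCL1 averaged 0.15 ± 0.98. The inhibitor alphaBFL1, named for Bfl-1, was high in L44 alone. There it held 8240 reads after and 3489 before selection with Bcl-B as the row (2.26-fold) and 12227 after and 1805 before with Bcl-B as the column (6.47-fold), or 3.50 and 5.02 above the median pair. In the other 3 sets it lay between -0.89 and 1.00 relative to the median pair, and its means of 1.21 and 0.96 were not called. The inhibitors alphaBCL2 and FECM04 averaged between -1.27 and 0.48 in their 4 pairs with Bcl-B.

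The inhibitor 2CDP06 separated the sets. With Bcl-B as the row it held 87399 reads after and 758 before selection in L49, a 118-fold gain. In the biological replicate L44 it held 929 after and 1889 before, in L45 6453 after and 41065 before, and in L66 360 after and 1573 before. Only L49 was high, and the mean of 2.29 ± 1.57 (SE, n = 4, limma adjusted p = 0.40) dropped to 0.08 without L49. With Bcl-B as the column the pair lost share in every set and averaged -1.20 ± 0.53 relative to the median pair.

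Pairs of Bcl-B with the other homologues were near the median pair on average, while single sets varied more. Bcl-2, Bcl-xL, Bcl-w, Bfl-1 and Mcl1 are all anti-apoptotic relatives with the same groove, and their 10 pairs with Bcl-B averaged between -0.71 and 1.02. Of these 10 limma called 0, and 0 had an unadjusted p under 0.05. The highest was Bfl-1 with Bcl-B as the row, at 0.38 in L45, -0.33 in L66, 2.75 in L44 and 1.30 in L49. The lowest was Bcl-w with Bcl-B as the column, at -0.93, -1.04, 2.83 and -3.68 in the same order of sets, of which the last rests on 1 read after selection and 106 before. A truncated Bcl-w occurred in L66 alone, with 588 reads after and 4742 before selection beside Bcl-B as the row, and with 359 after and 2974 before beside Bcl-B as the column.

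The pair of Bcl-B with itself had few reads in L66 and L49. It held 1093 reads after and 586 before selection in L45, 3 after and 26 before in L66, 5093 after and 8319 before in L44, and 86 after and 39 before in L49. Its share was higher after selection in L45 and L49 and lower in L66 and L44. Its mean relative to the median pair was 1.67 ± 0.76 (SE, n = 4, limma adjusted p = 0.19).

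**Figure D2:**
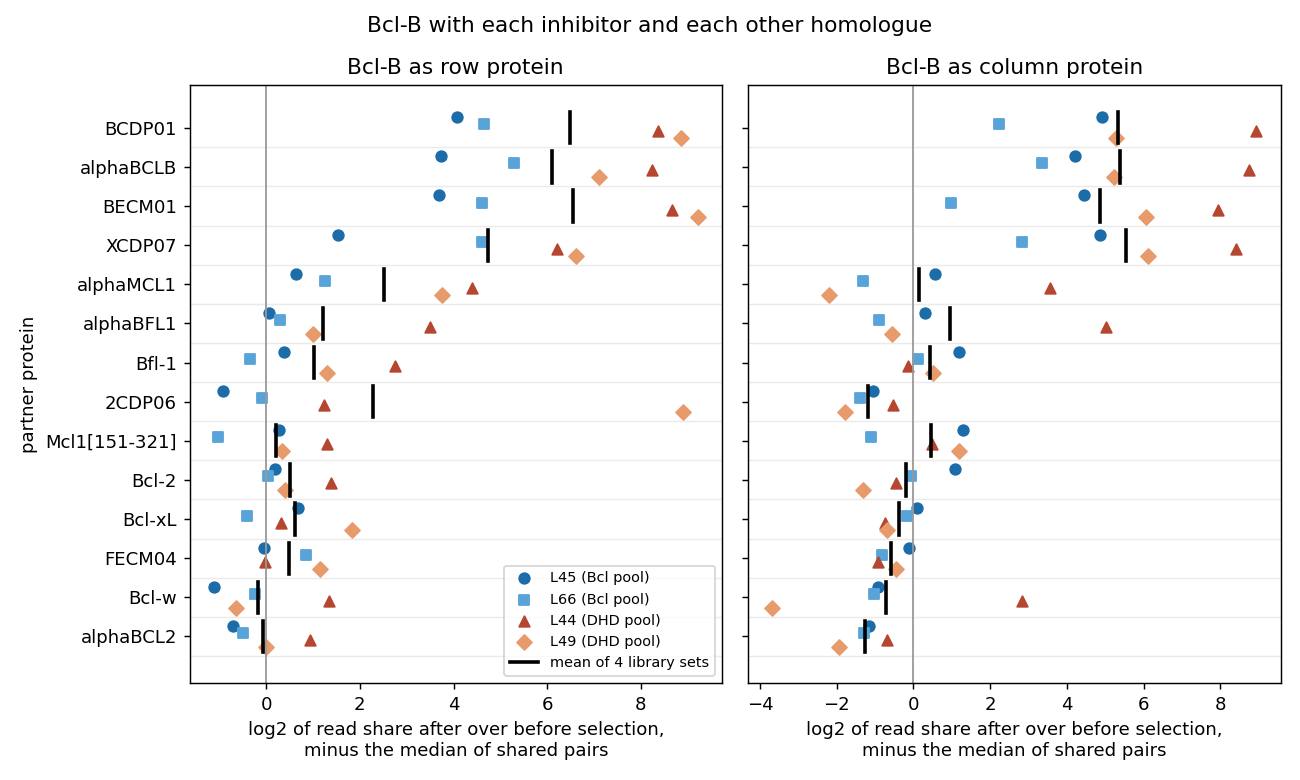
Log2 of the read share after over before selection, minus the median of shared pairs (horizontal), for Bcl-B with each partner (vertical, sorted by the mean over both orientations). Points are library sets and black bars their mean; the 4 uppermost partners are above 0 in every set, and 2CDP06 is high in L49 only when Bcl-B is the row.

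The next comparison asked whether these inhibitors favoured Bcl-B over its relatives. For each inhibitor or homologue partner, the value of Bcl-B minus that of another homologue in the same orientation and set was tested over the 4 sets. Of 124 differences tested, 19 were higher with Bcl-B (a background of 15.3%) and 8 were lower (6.45%). Since all of them involve Bcl-B, these shares are the counts themselves.

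With alphaBCLB all 10 differences were higher for Bcl-B, by 5.19 to 6.98 (limma adjusted p from 0.0081 to 0.0090), and each was above 0 in 4 of 4 sets. The row differences all start from the same Bcl-B values, and so do the column differences. The 10 calls are therefore not separate pieces of evidence. The smallest, against Mcl1 in the row orientation, was 3.75 in L45, 5.97 in L66, 5.04 in L44 and 6.02 in L49. The largest, against Bcl-w in the row orientation, was 5.73, 5.22, 9.04 and 7.91 in the same sets. Bcl-B ranked first of the 6 homologues in 8 of 8 profiles of this inhibitor (2 orientations in 4 sets), while the other 5 homologues averaged between -1.51 and 0.90 with it.

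BECM01 favoured Bcl-B less evenly. In 6 of 10 differences Bcl-B was higher, by 6.44 ± 1.23 (SE, n = 4, limma adjusted p = 0.0090) against Bcl-2 as the row at the upper end, and by 3.44 ± 0.96 (0.040) against Bcl-xL as the row at the lower end. Neither difference against Bfl-1 was called, and BECM01 averaged 6.55 with Bcl-B and 4.94 with Bfl-1 as rows, and 4.86 with Bcl-B and 4.88 with Bfl-1 as columns. Bcl-B ranked first in 6 of 8 profiles, and in both L66 profiles Bfl-1 ranked above it. The differences against Bcl-2 and Bcl-w as rows passed with any 1 set left out. Against Bcl-xL as the row none of the 4 left-out fits passed (adjusted p from 0.055 to 0.13), against Mcl1 as the row it failed without L66 (0.055) or L44 (0.054), and against Bcl-w and Mcl1 as columns it failed without L45, L44 or L49 (0.085 to 0.11).

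BCDP01 and XCDP07 had high values with other homologues too. With the homologue as the row, BCDP01 averaged 6.49 with Bcl-B, 5.62 with Bfl-1, 5.18 with Mcl1 and 5.08 with Bcl-xL. With the homologue as the column, XCDP07 averaged 5.55 with Bcl-B, 6.04 with Mcl1, 4.44 with Bcl-xL and 3.76 with Bcl-w. With BCDP01 1 of 10 differences passed, against Bcl-w as the column (4.66 ± 1.05, SE, n = 4, limma adjusted p = 0.018), and with XCDP07 1 of 8 passed, against Bfl-1 as the column (3.27 ± 0.80, 0.028). The first failed without L45 (adjusted p = 0.080) or L44 (0.055), and the second without L45 (0.11), L66 (0.061) or L44 (0.070). Bcl-B ranked first with BCDP01 in 6 of 8 profiles and with XCDP07 in 2 of 8. The row differences against Bcl-xL and Bcl-w with XCDP07 were not tested, because those pairs held 6 and 7 reads before selection in L49. In L44 Bcl-B was at 3.88, below Bcl-xL (5.49) and Bcl-w (5.44), before subtracting the median. It was also below both in L66, above both in L49 and between them in L45. The differences that did not pass do not show that these inhibitors treat the homologues alike: the interval between Bcl-B and Bfl-1 as rows with BCDP01 ran from -1.34 to 3.07, and that between Bcl-B and Bcl-xL as columns with XCDP07 from -1.61 to 3.82.

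Where Bcl-B was lower, the inhibitors carried other names. It was lower than Mcl1 with alphaMCL1, by -3.00 ± 0.76 as the row and -5.05 ± 0.82 as the column (SE, n = 4, limma adjusted p = 0.030 and 0.0081), and lower than Bfl-1 with alphaBFL1, by -3.75 ± 0.97 and -4.08 ± 0.78 (0.030 and 0.0090). With alphaBFL1 it was also lower than Bcl-xL as the column (-4.32 ± 1.21, 0.040). With FECM04 it was lower than Bfl-1 and Bcl-xL as rows and Bcl-2 as the column, by -5.43, -4.20 and -4.54. With alphaMCL1 Bcl-B was higher than Bcl-xL as the row (3.85 ± 1.02, 0.032), which no fit with 1 set left out called (adjusted p from 0.054 to 0.10). Leaving out L66 reduced the 8 lower calls to 3, L45 to 4 and L44 to 5. Those against Mcl1 as the column with alphaMCL1, Bfl-1 as the column with alphaBFL1 and Bfl-1 as the row with FECM04 passed in each case. Leaving out L44 also reduced the 19 higher calls to 12.

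**Figure D3:**
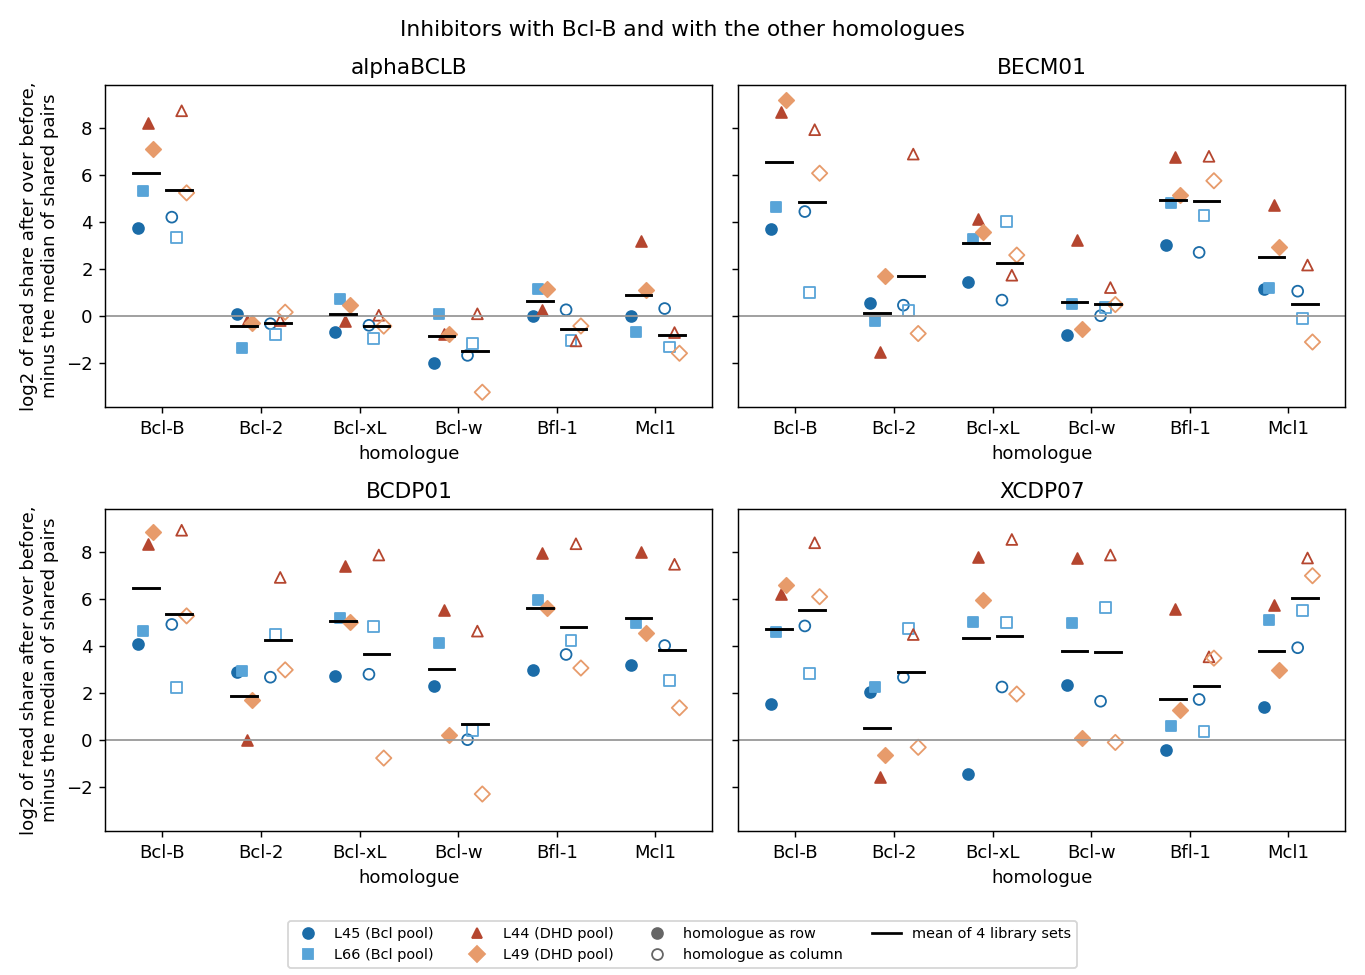
Log2 of the read share after over before selection, minus the median of shared pairs (vertical), of 4 inhibitors with each homologue (horizontal, Bcl-B leftmost). Filled points have the homologue as row and open points as column, shapes are library sets and bars their mean; with alphaBCLB the Bcl-B points lie above those of all other homologues in the same set and orientation, while BCDP01 and XCDP07 also reach high values with other homologues.

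Across the 9 inhibitors in both orientations (18 points a set), the homologue whose values were most like those of Bcl-B was Mcl1, with a mean Pearson's r of 0.44 over the 4 sets (0.37 to 0.57). Bcl-2 was least like it, with a mean r of -0.12. Bcl-B correlated with itself between sets at r of 0.68 to 0.93 over the same points. These values describe points that share libraries and inhibitors, so no p is given.

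Other homologues had called pairs as well. Of the pairs tested per homologue, 8 of 29 were higher for Bcl-B, 7 of 29 for Bfl-1, 6 of 26 for Bcl-xL, 6 of 29 for Mcl1, 3 of 29 for Bcl-2 and 0 of 25 for Bcl-w (limma). Bcl-B had 4 partners called in both orientations, against 3 for Bfl-1 and Mcl1, 1 for Bcl-xL and 0 for Bcl-2. Partners called in at least 1 orientation were 5 for Bcl-xL, 4 for Bcl-B and Bfl-1, and 3 for Mcl1 and Bcl-2. Whether these counts differ between homologues was not tested.

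The orientation of the fusions did not give a called difference for the 14 partners that all 4 sets share. Row minus column was above 0 in the mean for 12 of the 14 partners of Bcl-B, and 0 of 14 passed (limma over 101 pairs, of which 0% passed). At an unadjusted p under 0.05 it was 0 of 14 for Bcl-B and 5 of 101 over all. The widest gap was 3.48 for 2CDP06, which L49 sets at 10.69, and the next was 2.36 for alphaMCL1 (95% interval -0.15 to 4.87). For the 4 inhibitors the intervals were -1.02 to 2.45 with alphaBCLB, -1.08 to 3.36 with BCDP01, -0.45 to 3.82 with BECM01 and -3.14 to 1.52 with XCDP07, so differences of several log2 units were not detectable with 4 sets. In L66 and L49 the row was higher with all 4 of them, and in L45 the column was. The designed chains were not part of this test. With them the median log2 ratio was -1.47 with Bcl-B as the row and -3.17 as the column in L44. In L49 it was -0.38 and -2.59, so the row median was higher in both sets.

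In each pool by itself, the count test compared 2 libraries after with 2 before selection. In the Bcl pool edgeR's quasi-likelihood test called 0 of 29 Bcl-B pairs, against a background of 0% of 225 pairs, and 1 of 29 had an unadjusted p under 0.05, Bcl-B as the row with BECM01 (3.72 ± 1.51, adjusted p = 0.36), against 21 higher and 9 lower of all 225. With the library set as a replicate block, which the labels' pairing of libraries allows, edgeR called 4 Bcl-B pairs higher, against a background of 10.7%. These were the row pairs with alphaBCLB, BCDP01 and BECM01 and the column pair with alphaBCLB. DESeq2 called 4 higher too, the row pairs with all 4 inhibitors, against a background of 17.3%. Leaving out the library of L45 after selection turned the fitted change of BECM01 to -0.97 and of XCDP07 to -0.17 with Bcl-B as the column.

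In the DHD pool edgeR called 0 of 672 Bcl-B pairs, against a background of 0% of 110004 pairs, and at an unadjusted p under 0.05 there were 0 higher and 1 lower, against 3.5% higher and 3.18% lower over all pairs. The fitted changes of the 8 inhibitor pairs were from 6.54 to 9.10, with SE from 4.23 to 6.03. DESeq2 gave no adjusted p for 68247 of the pairs. Of the 666 Bcl-B pairs with one, it called 38 higher (5.71%), against a background of 16.7% of the pairs with an adjusted p and 6.35% of all pairs, and 3 lower, against 0.436%. An adjusted p was given for nearly all of the 672 Bcl-B pairs but for only 41757 of the 110004, so the first 2 shares have unlike bases. Over all pairs tested, 38 of 672 Bcl-B pairs were called higher against 6982 of 110004, a share near the background. Without the L44 library after selection edgeR called 138 Bcl-B pairs higher (20.5%) and 3 lower, against backgrounds of 7.6% and 1.82%. Without that of L49 it called 52 higher (7.74%), near the background of 6.23%. Both fits hold a single library after selection, which is assumed to vary like those before selection, so their calls are no replicate check of the inhibitor pairs. The 38 held the 8 inhibitor pairs, 28 designed chains, and Bcl-B as the row with 2CDP06 and with alphaMCL1.

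The designed chains gave Bcl-B a background of partners with no stated link to it. Each chain is 1 member of a synthetic heterodimer. In the row orientation, the median log2 ratio over 322 chains was -1.47 in L44 and -0.38 in L49, and the 4 inhibitors lay between 3.88 and 6.35 in L44 and between 4.59 and 7.19 in L49. In the column orientation the median was -3.17 in L44 and -2.59 in L49, where all but 1 and all but 2 of the chains had enough reads, and no chain lay above the lowest of the 4 inhibitors, at 5.61 in L44 and 3.21 in L49. As the row, 2 chains lay above the lowest inhibitor in each set. In L44 these were B_HT_DHD_94 (5.53, against -1.15 in L49) and B_HT_DHD_96 (5.15, against -1.82 in L49), and in L49 B_HT_DHD_97 (5.05, against -1.01 in L44) and B_HT_DHD_13 (4.74, against -0.86 in L44). These 4 chains were chosen after their values were seen, and none was above 0 in both sets. The 4 inhibitors were themselves picked by calls that used L44 and L49, so their place above the chains is no separate support. As the row, the remaining inhibitors lay between -2.34 and 2.07 in L44 and between -2.02 and 6.88 (2CDP06) in L49. As the column they lay between -3.26 and 2.69 in L44 and between -4.23 and -2.48 in L49.

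Chains above 0 in 1 replicate were mostly not above 0 in the other, as was also so over all pairs of the pool. As the row 33 of 322 chains (10.2%) were above 0 in L44, 137 (42.5%) in L49, 14 (4.35%) in both, and 2 were above 2 in both. As the column 16 of 320 (5%) were above 0 in L44, 15 (4.69%) in L49 and 1 (0.312%) in both. Over all pairs of the pool, 6.03% were above 0 in L44, 12.5% in L49 and 2.06% in both. The row shares were thus higher in each set alone as well as in both, and the column shares were lower. Whether the overlap exceeds what the shares of the single sets give was not tested. The highest by their lower value were B_HT_DHD_50 (16867 reads after and 1610 before in L44, 6090 after and 831 before in L49), A_HT_DHD_85 (3254 after and 444 before, 404 after and 68 before) and B_ZCON_162 (3943 after and 1453 before, 505 after and 174 before). Their log2 ratios were 3.32 and 2.91, 2.81 and 2.59, and 1.38 and 1.57 in L44 and L49. The column chain above 0 in both sets was mALb8_cutT1_B at 1.83 and 1.11, followed by B_HT_DHD_68 at 1.14 and -0.37 and ZCON_15_re_loop_resurf_A at 3.28 and -1.06. The central 95% of the row values ran from -3.75 to 3.17 in L49 and from -3.28 to 1.99 in L44. That of the column values ran from -4.68 to 0.60 in L49 and from -4.59 to 2.39 in L44. The libraries of L49 were the shallower, and a link of these ranges with depth was not tested.

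**Figure D4:**
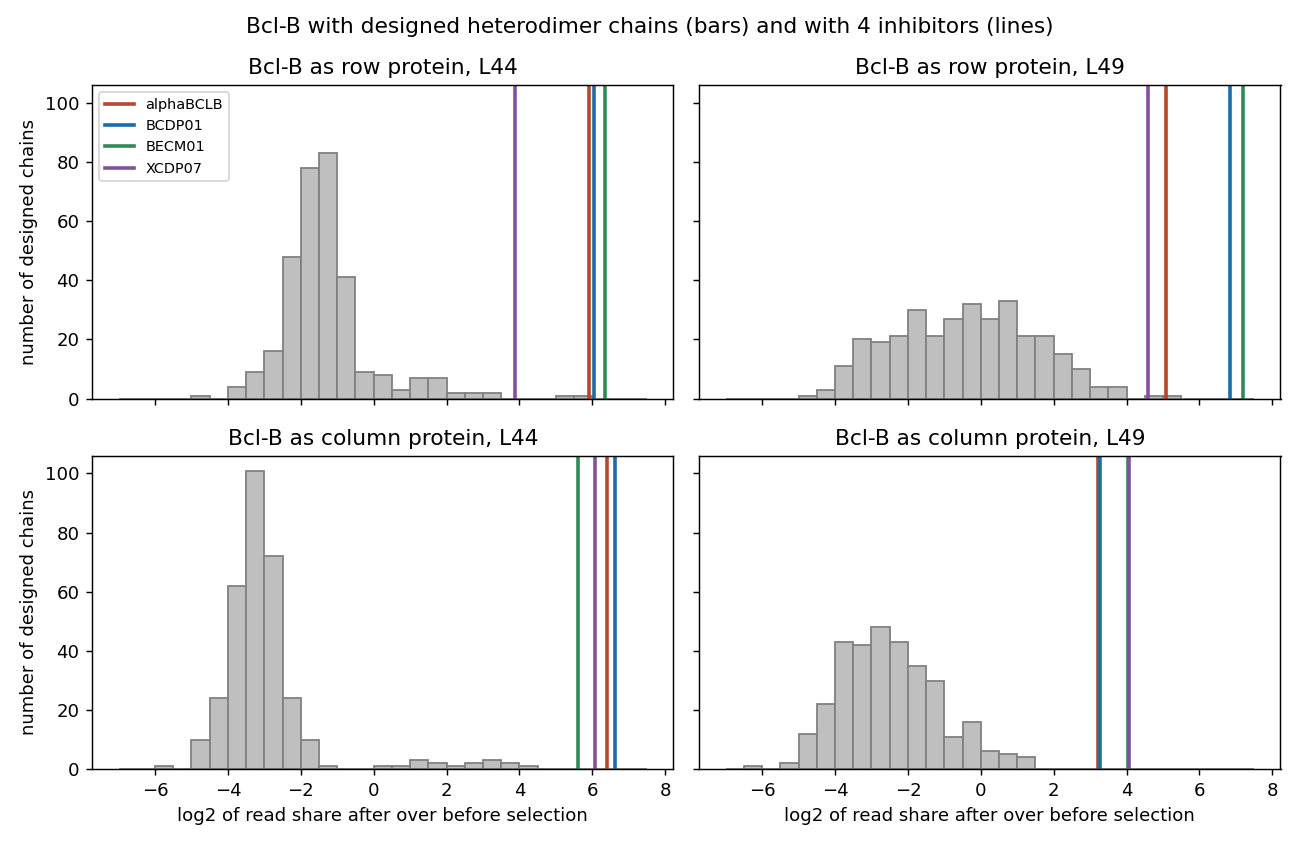
Number of designed chains (vertical) by log2 of the read share after over before selection (horizontal) with Bcl-B, in L44 and L49 and in both orientations, for chains with at least 10 reads before selection, with coloured lines at 4 inhibitors. In the column orientation all 4 lines lie to the right of every bar, and in the row orientation 2 chains in each set pass the lowest line.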

How the data were processed

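The deposited files hold counts of sequencing reads, 1 square matrix of ordered protein pairs for each library. Per the labels' design text, barcodes were counted on an Illumina NextSeq and compared with DESeq2 by the authors, whose version, like barcode matching, is not given in the sources used here. Deposited counts were read as they stand, blank cells as 0, and a "swap" suffix of some names was dropped in L44 to join it with L49.

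Groups follow the descriptions. The library set pairs after with before selection, and deviations from group means correlated at 0.799 in the Bcl pool and 0.337 in the DHD pool. Ratios used a pseudocount of 1 and pairs with at least 10 reads before selection. Tests over 4 sets used limma 3.58.1, and counts per pool edgeR 4.0.16 (quasi-likelihood, TMM, at least 10 reads per library on average) in R 4.3.3, with Benjamini-Hochberg adjusted p under 0.05 over all pairs tested. DESeq2 1.42.0, other filters, pseudocounts and centring, a replicate block and left-out libraries were alternatives. Tables were made with Python 3.11.15, pandas 2.3.3, numpy 2.4.6 and scipy 1.17.1, and plots with matplotlib 3.10.9. The scripts were tested on simulated data.

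Every pair of Bcl-B with a homologue or inhibitor is named or counted, and of designed chains the 3 per orientation with the highest lower value over L44 and L49. Homologues most and least like Bcl-B were ranked by Pearson's r over inhibitors. Members and lists were chosen with earlier results of these data known. Wilson intervals of read shares cover counting error only, and they treat reads as independent molecules, which reads are not. The other intervals come from the limma fits and use the spread between library sets, with each variance drawn toward that of all pairs or differences tested.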

Additional observations from a re-analysis of the deposited data

Results flagged for a closer look

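In the DHD pool, Bcl-B as the row with 2CDP06 was above the median pair in both sets (1.24 in L44 and 8.91 in L49), while it was below in both sets of the Bcl pool (-0.91 in L45 and -0.09 in L66). The difference of pool means was 5.57, and it was not tested. Likewise, Bcl-B as the row with alphaBCL2 was above the median pair in both DHD sets (0.93 and 0.01) and below it in both Bcl sets (-0.71 and -0.50). This difference of 1.07 was not tested either. Among the 336 partners of Bcl-B as the row, alphaBCL2 ranked 160 in L44 and 260 in L49, and 2CDP06 ranked 103 and 2. Before subtracting the median, alphaBCL2 was at -1.40 and -2.02, beside designed-chain medians of -1.47 in L44 and -0.38 in L49. The median of the shared pairs was lower than that of these chains, at -2.33 and -2.02. A split by pool was not particular to these pairs. The 8 pairs with alphaBCLB, BCDP01, BECM01 and XCDP07 were above the median pair in every set, but also higher in both DHD sets than in both Bcl sets. With alphaBCLB and Bcl-B as the row, values were 8.24 in L44 and 7.12 in L49, against 3.73 in L45 and 5.30 in L66.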

How the results depend on the processing

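The 8 inhibitor pairs were above 0 in all 96 of their alternatives over sets (2.72 to 8.95) and called in 75 of them. The count of 8 became 0 with L44 and L49 alone, and 0 to 8 with 1 set left out. Pairs called lower became 12 with library totals alone, and the pair of Bcl-B with itself turned to -0.34. The value with 2CDP06 turned to -0.50 with L45 and L66 alone. Of differences between homologues, 12 to 16 were higher and 3 to 9 lower with 1 set left out, and 16 were lower with L45 and L66 alone and 1 with L44 and L49 alone. The 10 differences with alphaBCLB, which share their Bcl-B values within an orientation, stayed at 8 to 10 calls. Row against column gave 0 to 1 calls with 1 set left out. In the Bcl pool DESeq2 called 4 Bcl-B pairs, as did the replicate block, which uses the pairing, and 0 to 0 were called with 1 library left out. There BECM01 with Bcl-B as the column ranged from -0.97 to 5.91, and XCDP07 from -0.17 to 7.57. In the DHD pool the replicate block changed no call, DESeq2 called 38 higher and 3 lower, and leaving out 1 library gave 0 to 138 higher and 0 to 3 lower, the calls coming from fits with a single library after selection. The cause of these changes was not tested. The least covered values were the pair of Bcl-B with itself in L66 (3 reads after and 26 before selection) and Bcl-w with Bcl-B as the column in L49 (1 after and 106 before).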
